A study of Mus musculus with 6 samples.

Results

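Macrophages taken from the mouse pancreas 7 days after caerulein pancreatitis were compared with those taken on day 3, which sets a late against an early point of tissue repair. The comparison rests on 1 pooled library a side, 2 of the 6 libraries of the series. The day 7 library came from wild-type Balb/c mice given caerulein in 10 hourly injections, and the day 3 library from mice of that strain and treatment killed earlier. Caerulein mimics the gut hormone cholecystokinin and drives the enzyme-secreting acinar cells to injury. The sources used here give no ages. Both were pools of more than 3 mice, sorted by flow cytometry for CD45 (a protein of all leukocytes), CD11b (an integrin of myeloid cells) and F4/80 (a macrophage surface protein). Libraries of days 1, 4 and 5 and of saline-injected mock mice are used as background. Of the 31617 genes in the table, the 10000 whose mean over the 6 libraries was highest were called expressed. For each of them a log2 ratio of day 7 over day 3 was formed from the deposited normalised read counts plus a pseudocount of 17.8, which understates the ratios of low genes. Positive ratios mean a higher value on day 7.

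After caerulein injury acinar cells die or lose their secretory state, leukocytes enter, and the gland is rebuilt within about a week. In such repair macrophages clear debris, may divide locally, and exchange signals with the stellate cells that lay down collagen. Later macrophage states are known for antigen presentation through MHC class II molecules, and tissue-resident macrophages carry scavenger and lectin receptors.

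With 1 library a side no difference has a replicate check within a day. A test is possible only if the other days stand in as replicates, and its counts are given among the alternatives. Genes were therefore counted at a ratio of 2-fold. Some ratios are given with an exact 95% Clopper-Pearson interval for the ratio of reads without pseudocount, which for low genes can lie beyond the ratio itself. Such intervals hold counting error alone, because without molecular identifiers several reads can come from 1 molecule, and they do not tell how pools of mice vary. Differences are described as higher or lower in a library.

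Day 7 and day 3 stood far apart among the 6 libraries. At least 2-fold higher on day 7 were 815 of the 10000 expressed genes (8.15%), and 1800 (18%) were at least 2-fold lower, together 26.1%. In the 15 possible pairs of libraries this was the second highest number, after 3124 genes between days 7 and 1. Day 7 differed from mock at 853 genes and day 3 from mock at 944. At 4-fold the counts were 258 higher (2.58%) and 240 lower (2.4%). The split between higher and lower moved with the scaling. It was 1055 higher to 1422 lower once libraries were centred on their median gene and 1152 to 1415 after quantile normalisation, each of which moved the median of all genes by 0.14. Scaling to equal totals, which moved that median by 0.38, gave 1652 to 954. Equal totals over genes other than acinar, Reg, erythroid and mitochondrial ones moved it by 0.45 and gave 1875 to 826. The medians below stand beside -0.15, the median over all expressed genes.

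The ratio also followed transcript length. In the shortest of 10 equal bins of genes, with 53 to 1295 exon bases, the median ratio was -1.15 and 60.2% were at least 2-fold lower on day 7. In the longest bin, with 6990 bases or more, the median was 0.28 and 3.40% were lower. Of the 1800 lower genes, 1451 were shorter than the median expressed gene of 3210 bases. Against mock, the shortest bin had a median of -0.66 on day 7 and 0.47 on day 3. Ratios were therefore also centred on the median of genes of like length, an alternative chosen after seeing the data, which gave 935 higher (9.36%) and 859 lower (8.6%). With GC content centred as well, 857 (8.58%) were higher and 739 (7.4%) lower. Where the counts of a list changed with length centring, the centred counts stand beside the first ones. What sets the relation to length was not tested.

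**Figure D1:**
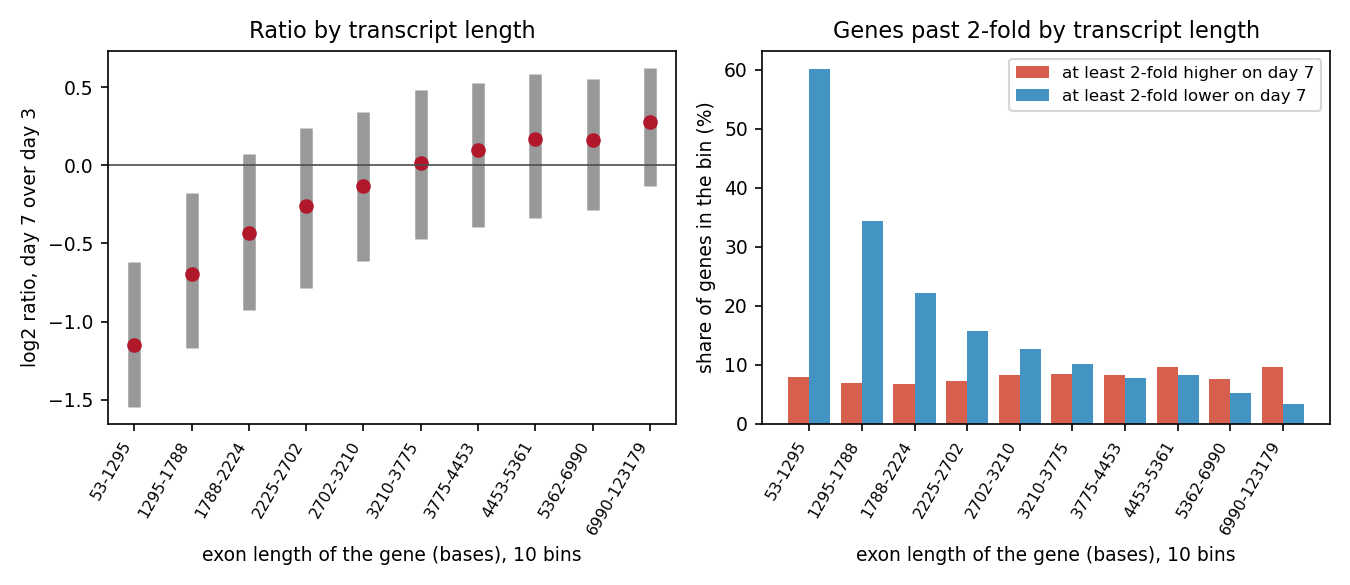
Left, median log2 ratio of day 7 over day 3 (points) with the range from the 25th to the 75th percentile (bars) in 10 bins of exon length in bases; right, the share of genes in each bin at least 2-fold higher or lower on day 7, in percent. The medians climb from -1.15 in the shortest bin to 0.28 in the longest, and the share of lower genes drops from 60.2% to 3.40%.

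The day 7 library held 16358551 reads and the day 3 library 25726455. A floor of 3 reads was worth 2.53 normalised counts on day 7 and 2.11 on day 3. The genes of the sort were present in both. Ptprc, which encodes CD45, had 11553 normalised counts on day 7 against 7282 on day 3, Adgre1 (F4/80) had 9671 against 12632, and Itgam (CD11b) had 1097 against 1409. All of them lay within 2-fold. Of 17 general macrophage genes 0 were higher and 4 lower, with a median of 0.04 that turned to -0.07 after length centring. The 4 were Lyz2 (-1.22), Cd14 (-1.38), Cd68 (-1.40) and Fcgr1 (-1.13), and after length centring all 4 lay within 2-fold. The centred counts were 3 higher and 0 lower, the 3 being the complement genes C1qa (1.34), C1qb (1.22) and C1qc.

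Transcripts of cells other than macrophages differed between these libraries, and their values bear on several results below. Acinar genes were higher on day 7 in 18 of 18 expressed cases, with a median of 2.89 and a summed level of 770552 on day 7 against 100824 on day 3 and 680569 in mock. They made up 5.58% of all normalised counts on day 7 and 0.556% on day 3. The lipase gene Cel had 164922 on day 7 against 4912 on day 3, and Pnlip, which encodes pancreatic lipase, 111895 against 5077. NK cell genes were higher in 7 of 7 cases (median 4.32), T cell genes in 10 of 10 (2.83) and B cell genes in 10 of 10 (3.34). Their sums were 8999, 6314 and 8248 on day 7, against 311, 737 and 1164 on day 3. In mock they were also above day 3, at 4375, 4434 and 8695. Dendritic cell genes were higher in 6 of 10 cases (median 1.74, sums 17368 and 8588 for days 7 and 3). No listed marker of these 5 cell types was at 0 in either library.

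Fibroblast and stellate cell genes were on the other side, lower on day 7 in 7 of 10 expressed cases with 0 higher (median -1.51; 7 and 1 after length centring). Without the expression filter the median of the list was -1.10. Sums of the list were 21123 on day 7, 29168 on day 3 and 10925 in mock. As a share of all normalised counts it was nearly equal, 0.153% on day 7 and 0.161% on day 3, so the lower sum depends on the scaling. Duct genes were lower in 4 of 8 cases and higher in 0 (median -1.25), and after length centring 3 were lower and 1 higher (-0.64). Among the lower ones is Spp1, a gene that macrophages also make. The keratin genes of duct cells were few in counts, with Krt19 at 65.9 on day 7 against 521 on day 3 and Krt8 at 363 against 1406. The 3 expressed haemoglobin genes were all lower on day 7 (sums 1263 and 3612), but within 2-fold after length centring.

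**Figure D2:**
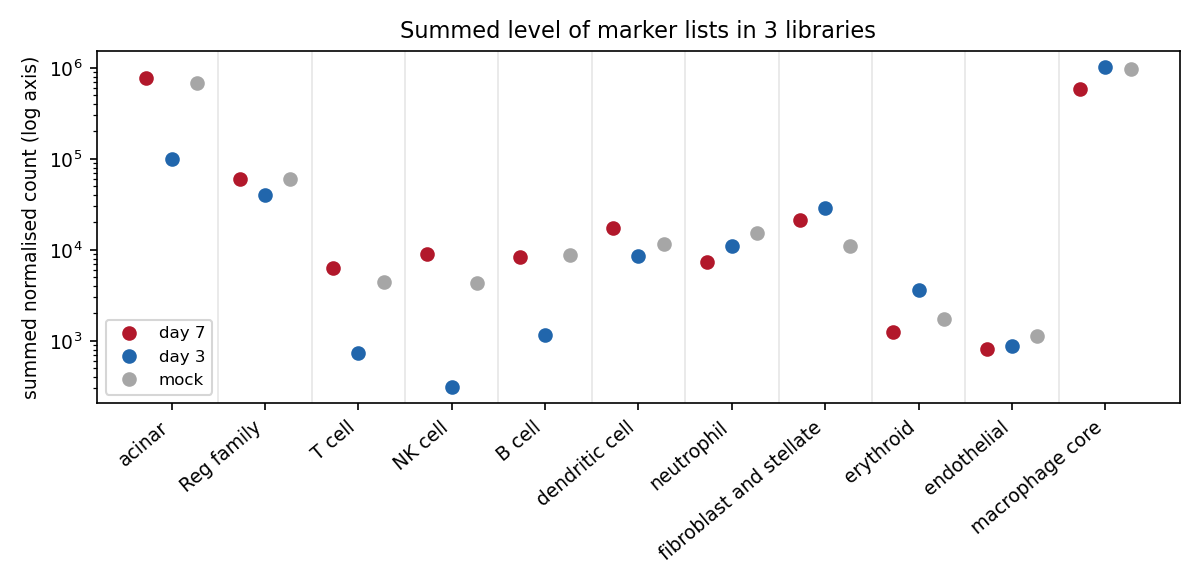
Summed normalised counts (log axis) of marker lists in the day 7 library (red), the day 3 library (blue) and the mock library (grey), 1 pooled library each. Acinar, T cell, NK cell and B cell lists are several-fold higher on day 7 than on day 3, while fibroblast and erythroid lists are lower. As a share of all counts the fibroblast list is nearly equal on both days.

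**Figure D3:**
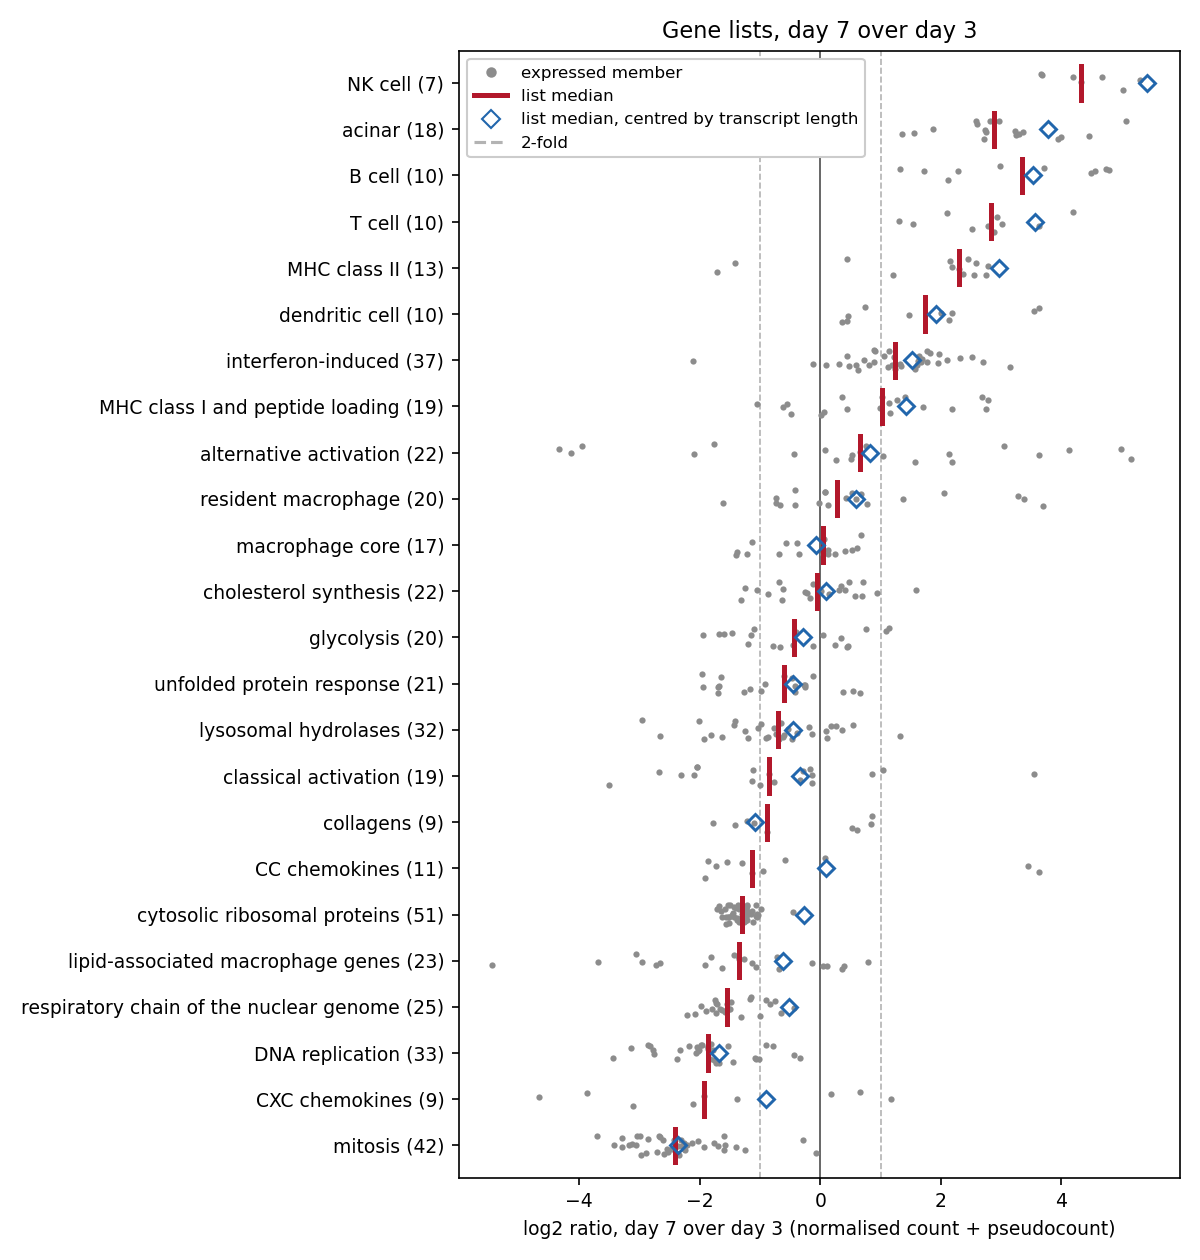
Log2 ratio of day 7 over day 3 for the expressed members of gene lists (grey points, number of members in brackets), with the median of each list (red bar) and its median after centring on genes of like transcript length (blue diamond); dashed lines mark 2-fold. Mitosis genes lie at the bottom with a median of -2.41, and ribosomal protein and respiratory chain genes move towards 0 once length is centred.

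Genes of dividing cells were low in the day 7 library almost throughout. Of 42 expressed mitosis genes 40 were at least 2-fold lower on day 7 and 0 higher, with a median of -2.41. Length centring left 40 lower and a median of -2.35. Birc5, whose product survivin belongs to the chromosomal passenger complex, had 237 normalised counts on day 7 against 3281 on day 3 (log2 ratio -3.69, interval -3.97 to -3.61). Cdk1, the kinase that drives entry into mitosis, had 185 against 2159 (-3.42), and its partner cyclin gene Ccnb1 had 187 against 1971 (-3.28). The ubiquitin-conjugating enzyme gene Ube2c (-3.29) and the kinetochore gene Nuf2 (-3.17) were lower too. Day 3 was the highest of the 6 libraries for Cdk1, which had 512 in mock and 83.7, 2159, 171, 167 and 185 on days 1, 3, 4, 5 and 7. In bulk RNA fewer dividing cells and less RNA per cell cannot be told apart, here and below. The part of cells other than macrophages in the values of division genes was not tested. The 2 members within 2-fold were the phosphatase gene Cdc25b (-0.28) and the separase gene Espl1 (-0.06), named after their values were seen.

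DNA replication genes had 29 of 33 members lower and 0 higher (median -1.86), and 27 lower after length centring (-1.68). Thymidine kinase gene Tk1 had 219.6 on day 7 against 2564 on day 3 (-3.44). Thymidylate synthase gene Tyms stood at -3.14, the ribonucleotide reductase subunit gene Rrm2 at -2.78 and the sliding clamp gene Pcna at -2.06. Among the subunits of the replicative helicase, Mcm6 had 792 against 3330.0 (-2.05), Mcm5 stood at -1.77 and Mcm3 at -1.09. Against mock the day 7 medians of both lists were also below 0, at -1.01 for mitosis and -0.95 for replication, where day 3 stood at 1.47 and 0.94. Replication-dependent histone genes, whose transcripts lack a poly(A) tail, had no expressed member.

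Of 17 regulators of the step into the cell cycle 4 were lower and 1 higher, and after length centring 3 and 3, with a median of -0.40 that turned to 0.02 under equal totals without acinar, Reg, erythroid and mitochondrial genes. The inhibitor genes Cdkn2c (151 on day 7 against 1219 on day 3) and Cdkn1a (2998 against 13655) were lower, at -2.87 and -2.18. Cdkn2a and Cdkn2b, also inhibitor genes, were not among the expressed genes. The D-type cyclin gene Ccnd2 was the 1 higher member, with 1535 against 504 (1.57), and Ccnd3 lay at 0.59.

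Because mitosis genes moved together, their promoters are shown. In such genes a cell cycle homology region (CHR, here TTTGAA) and CCAAT boxes are known as the elements through which the DREAM and MuvB complexes and NF-Y act. Windows from 250 bases before to 50 after a gene's start were taken from RefSeq (GRCm38.p6) and searched on both strands for TTTGAA and CCAAT. The Birc5 and Cdk1 windows, at chr11:117848987-117849286 (plus strand) and chr10:69352863-69353162 (minus strand), are given 5′ to 3′ with matches in capitals. These coordinates belong to that build and not to the mm8 build named for the deposited files.
Birc5: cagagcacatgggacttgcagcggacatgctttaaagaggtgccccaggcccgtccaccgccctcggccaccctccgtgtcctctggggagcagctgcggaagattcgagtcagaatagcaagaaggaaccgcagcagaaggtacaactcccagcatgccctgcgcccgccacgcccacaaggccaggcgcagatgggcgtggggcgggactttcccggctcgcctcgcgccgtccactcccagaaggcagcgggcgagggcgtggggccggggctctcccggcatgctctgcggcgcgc
Cdk1: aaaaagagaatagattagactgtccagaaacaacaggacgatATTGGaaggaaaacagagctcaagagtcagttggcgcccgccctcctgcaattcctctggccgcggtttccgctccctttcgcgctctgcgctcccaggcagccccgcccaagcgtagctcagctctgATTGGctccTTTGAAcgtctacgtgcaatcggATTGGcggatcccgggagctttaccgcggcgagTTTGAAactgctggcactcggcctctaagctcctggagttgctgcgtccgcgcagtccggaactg
The Cdk1 window held 2 CHR and 3 CCAAT matches, none of which overlapped, and the Birc5 window held neither in these letters. Of 38 windows of mitosis genes 29 (76.3%) held a CHR, against 17.9% of all 32851 windows and 12.3% of those of expressed genes. CCAAT was in 78.9%, against 37.4% of all windows. Both together were in 68.4% of the mitosis windows, 6.95% of all and 4.86% of those of expressed genes. Of 32 windows of DNA replication genes 68.8% held an E2F-type element, against 9.57% of all windows and 16.6% of those of expressed genes. The E2F forms searched on both strands were TTGGCGC, then a form reading TTCCCGC, a further form reading TTGCCGC, and last the form reading TTCGCGC. A match is a description of the letters and not a bound site.

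Matrix genes were split by kind. Among 9 expressed collagen genes 4 were at least 2-fold lower on day 7 and 0 higher (median -0.89, and -0.28 without the expression filter). Under equal totals the median came to -0.51, and to -0.44 without acinar, Reg, erythroid and mitochondrial genes. The size of the collagen difference thus depended on the scaling. After length centring 5 were lower, the fifth being Col14a1 (-1.07), and the median was -1.07. The first 4 encode chains of fibre-forming collagens. Col1a1 had 721 on day 7 against 2512 on day 3 (-1.77, interval -1.91 to -1.69), Col1a2 1010.1 against 2725 (-1.42), and Col3a1 3443 against 7376 (-1.10). Col5a1 stood at -1.22. Of the other 5, Col14a1 lay at -0.89. The chains of basement membrane collagen, Col4a1 (0.61) and Col4a2 (0.53), and of beaded-filament collagen, Col6a1 (0.85) and Col6a2 (0.86), were within 2-fold and above 0. Col4a1, Col4a2 and Col6a1 were named after their values were seen. The basement membrane gene Nid1 was higher on day 7, with 764 against 177 (2.01), and the proteoglycan gene Dcn lay at 0.68. Day 7 was not at the mock level: the collagen list had a median of 1.72 over mock on day 7 and 1.44 on day 3, and Col1a1 had 183 in mock. Col1a1, Col1a2, Col3a1 and Dcn are also members of the fibroblast list whose sums are given above, and the part of those cells in these values was not tested.

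Genes for proteins that bind or modify matrix were lower in 11 of 23 cases and higher in 1 (median -0.81; 9 and 2 after length centring, median -0.76). The lowest were Spp1, which encodes osteopontin, with 4619 on day 7 against 202196 on day 3 (-5.45, interval -5.49 to -5.41), and the metalloproteinase inhibitor gene Timp1 with 18.6 against 1311 (-5.19, interval -6.82 to -5.54). Spp1 was the lowest ratio of all named genes. The day 7 value was also below mock for both, which had 10118 for Spp1 and 213 for Timp1. The matricellular genes Sparc (-1.94) and Postn (-1.71) and the fibronectin gene Fn1 (-1.76) were lower as well, while Timp2 lay at -0.12.

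Of 20 genes of metalloproteinases and the plasmin system, which degrade matrix, 2 were higher and 4 lower, and 2 and 2 after length centring. These counts lie near the shares over all expressed genes, 8.15% higher and 18% lower, and show nothing about the list. The median was -0.39 and turned to 0.06 under equal totals without acinar, Reg, erythroid and mitochondrial genes. Gelatinase gene Mmp2 had 648 on day 7 against 175 on day 3 (1.79), the highest of the 6 libraries. The macrophage elastase gene Mmp12 had 682 against 146 (2.10), with 1138 in mock. The urokinase gene Plau (-1.07) and Mmp19 (-1.07) were lower. Fibroblasts are also known to make Mmp2, and the part of those cells, whose summed markers are given above, was not tested.

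Growth factor genes of repair were lower in 5 of 18 cases and higher in 2 (median -0.53), and in 4 and 1 after length centring (-0.54). With 18% lower and 8.15% higher over all expressed genes, these counts are near the background. Both lower EGF-family ligand genes were at low counts, Areg with a ratio of -2.42 and Hbegf with 67.6 on day 7 against 342 on day 3. The angiogenic factor gene Vegfa had 183 against 871 (-2.14), and oncostatin M gene Osm 2414 against 7531 (-1.63). Transforming growth factor gene Tgfb1 (0.44) and its receptor gene Tgfbr2 (0.80) lay within 2-fold. Tgfb2 and Tgfb3 were not among the expressed genes. Platelet-derived factor gene Pdgfb was higher, with 156 against 57 (1.22).

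**Figure D4:**
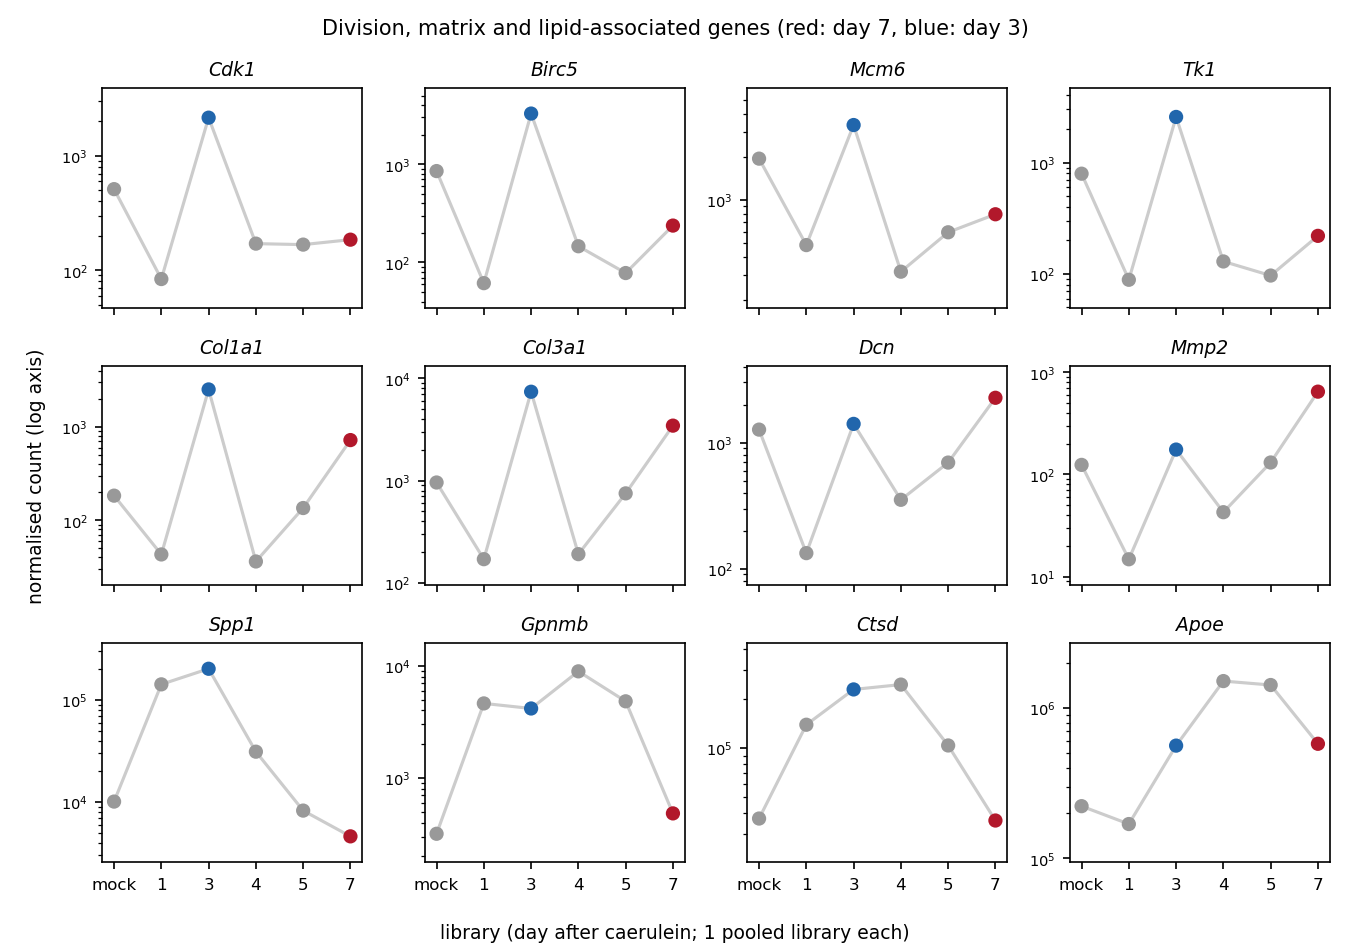
Normalised counts (log axis) of 12 genes of division, matrix and lipid handling in mock and on days 1, 3, 4, 5 and 7, 1 pooled library each, with day 7 in red and day 3 in blue. Division genes have their highest value on day 3, fibrillar collagens have a second, lower value above mock on day 7, and Apoe is nearly equal on both days.

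Genes of lipid-laden macrophages made up a further group that was low on day 7. Of 23 expressed members 15 were lower and 0 higher (median -1.34), and 8 were lower after length centring (-0.62). Fatty acid carrier gene Fabp5 had 163 on day 7 against 2304 on day 3 (-3.68), and Gpnmb, a membrane glycoprotein gene of the lysosomal compartment, 483 against 4159 (-3.06). The lipid receptor gene Trem2 had 3135 against 11772 (-1.90, and -0.81 after length centring). Apoe, the lipid carrier that took the largest share of counts in the day 7 library, had 577517 against 561567 and so hardly differed (0.04), though both were above the mock value of 222184.

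Of 32 lysosomal genes 11 were lower on day 7 and 1 higher (median -0.70; 6 and 1 after length centring), and the 2 lowest encode proteases. Cathepsin L gene Ctsl had 4837 on day 7 against 37414 on day 3 (-2.95). Cathepsin D gene Ctsd had 36153 against 227422 (-2.65), with 37171 in mock, near the day 7 value. Ctsc (-1.93), Ctsb (-1.63) and the legumain gene Lgmn (-1.81) were lower too, and Ctsf, with 1026 against 397 (1.33), was the 1 higher member. Psap, which encodes the precursor of the saposins that help degrade sphingolipids, lay at 0.10.

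In the genes of cholesterol export controlled by LXR, 4 of 15 were higher and 4 lower. The median of 0.04 moved with the scaling, from -0.0035 after centring on macrophage core genes to 0.54 after quantile normalisation, and was 0.41 after length centring. The cholesterol transporter gene Abca1 had 845 on day 7 against 1988 on day 3 (-1.22). The phospholipid transfer protein gene Pltp had 25973 against 10193 (1.35), and the desaturase gene Scd1 210.3 against 33.8 (2.15). Cholesterol synthesis genes had 1 higher and 3 lower of 22, and 1 and 0 after length centring, with a median of -0.05 that turned positive under several scalings and with length centring (0.10). Their lower share was below the 18% over all genes.

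Groups of inflammatory mediators differed from each other. CXC chemokine genes had 6 of 9 expressed members lower and 1 higher (median -1.93; 4 and 1 after length centring, median -0.89). Without the expression filter the median over all 15 listed members was -0.25, so the low median holds for the expressed members only. The neutrophil attractant Cxcl1 had 551 on day 7 against 14312 on day 3 (-4.66, interval -4.81 to -4.59), and Cxcl2 5235 against 45018 (-3.10). Cxcl1 stood at 13047 in mock, close to day 3. The member that was higher is the B cell attractant Cxcl13 (186 against 72.5), named after its value was seen.

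CC chemokine genes had 6 of 11 members lower and 2 higher, with a median of -1.12 that came to -0.26 without the expression filter. These genes are short, and after length centring 1 was lower and 3 higher, with a median of 0.09. Monocyte attractant gene Ccl2 had 2897 on day 7 against 10975 on day 3, which is -1.92 as a ratio and -0.70 after length centring. Ccl4 stood at -1.86 and -0.64 on these scales. The 2 higher genes were Ccl22, an attractant of regulatory T cells made by dendritic cells and macrophages, with 578 against 30.3 (3.63), and Ccl5, made by T and NK cells as well as macrophages, with 1048 against 80.3 (3.44). They moved with the dendritic, T and NK cell sums given above, whose part was not tested.

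Of 19 classical activation genes 8 were lower and 2 higher (median -0.84; 6 and 3 after length centring, median -0.34). Interleukin gene Il1a had 86.2 on day 7 against 1161 on day 3 (-3.50), and Il1b 4602 against 19002 (-2.04). The decoy and antagonist of that receptor were lower with them, Il1r2 with 83.6 against 1033 (-3.37) and Il1rn with 517 against 2616 (-2.30). Cyclooxygenase gene Ptgs2 had 601 against 3908 (-2.66). Socs3 (-0.13) and the acute phase gene Saa3 (-0.14) lay within 2-fold. Ccr7, the receptor with which dendritic cells reach lymph nodes, was the highest member with 2343 against 184 (3.55).

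NF-kB pathway genes had 2 of 17 members lower and 0 higher (median -0.06, above 0 under several scalings), and 1 and 0 after length centring (median 0.02). Their lower share did not exceed the 18% of all expressed genes. The inhibitor gene Nfkbia had 11620.1 on day 7 against 66103 on day 3 (-2.51), while the deubiquitinase gene Tnfaip3 lay at -0.47. The costimulatory ligand gene Tnfsf9 had 160.5 against 2581 (-3.87). In its list of costimulation and checkpoint genes 2 of 12 were lower and 1 higher, and 1 and 2 after length centring. These counts were near the shares over all expressed genes.

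Alternative activation genes, the set that macrophages switch on with interleukins 4 and 13, parted into opposite groups. Of 22 expressed members 9 were higher on day 7 and 5 lower (median 0.66), and after length centring 10 and 5. On the low side were arginase gene Arg1, with 278 on day 7 against 5194 on day 3 (-4.14, interval -4.39 to -4.06), and the chitinase-like gene Chil3, with 431 against 6937 (-3.95). The anti-inflammatory cytokine gene Il10 had 50.7 against 1364 (-4.34), and Tgm2 (-2.09) and Fn1 (-1.76) were also lower. On the high side Retnla, which encodes the secreted protein RELM-alpha, had 6402 against 162 (5.16). The galactose-binding lectin gene Mgl2 had 5479.8 against 298 (4.12). Secreted phospholipase gene Pla2g2d had 634 against 2.82 (4.99), and its day 3 value rests on 4 reads.

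Retnla and Arg1 are given as examples of the full course, and other members of their groups may differ. Retnla had 6038 in mock and 881, 162, 2197, 3041 and 6402 on days 1, 3, 4, 5 and 7, lowest on day 3 and back at the mock value on day 7. Arg1 had 4691 in mock and 3934, 5194, 203, 115 and 278, so that it was high up to day 3 and low from day 4 on. Mrc1 (0.52), Stat6 (0.65) and the haemoglobin scavenger receptor gene Cd163 (0.67) lay within 2-fold. Cd209a (2.19), Irf4 (2.14) and Ccl22 are also on the dendritic cell list, whose sum was higher on day 7, and the part of those cells was not tested. A STAT6-type element (TTC and GAA set 4 bases apart, both strands) was in 1 of 19 promoter windows of the list, 5.26%, against 6.95% of all windows.

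**Figure D5:**
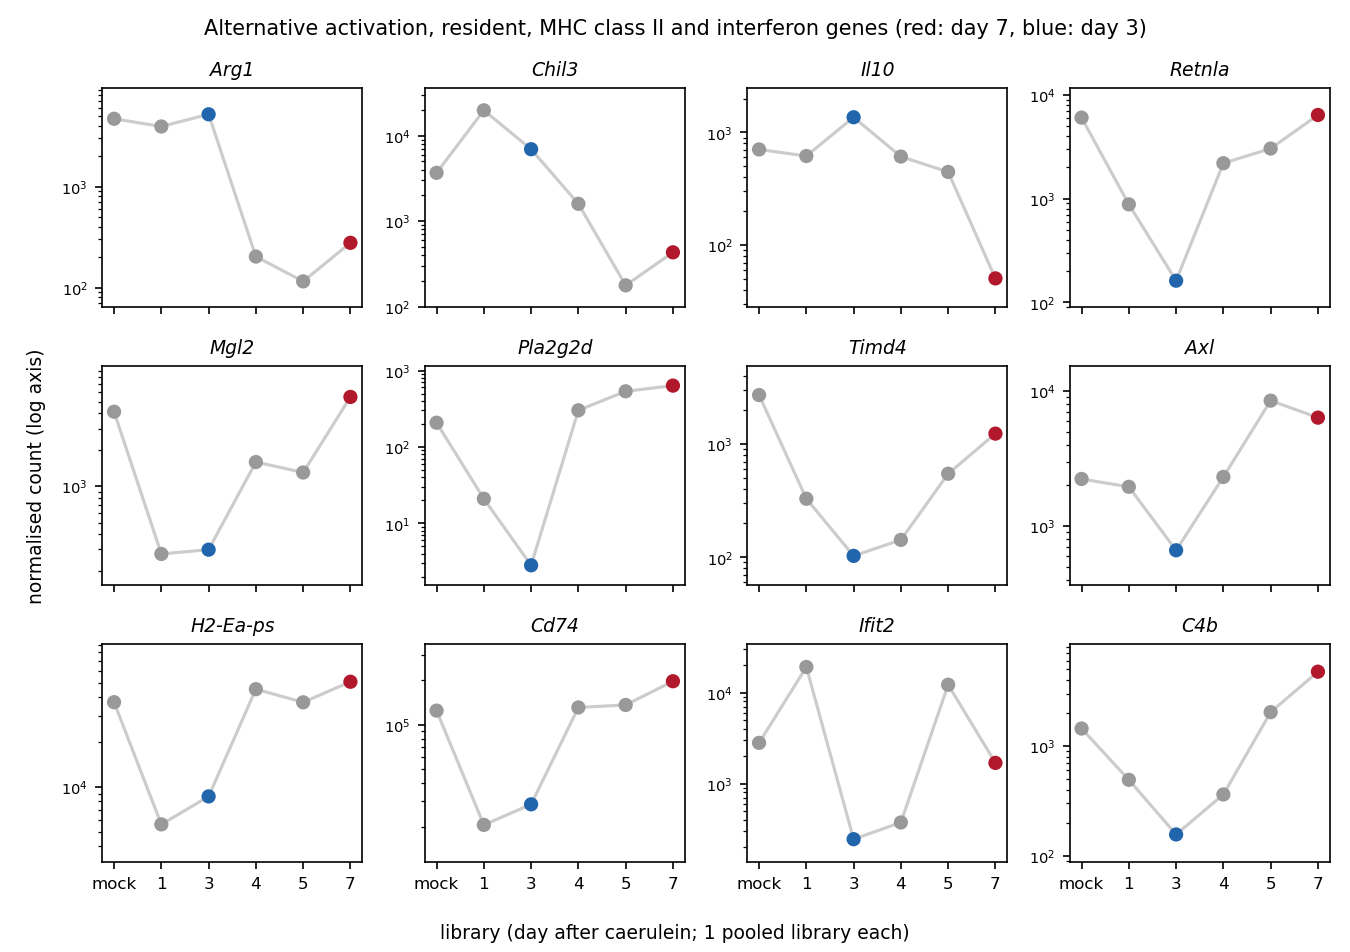
Normalised counts (log axis) of 12 genes of alternative activation, tissue residence, MHC class II, interferon response and complement in mock and on days 1, 3, 4, 5 and 7, 1 pooled library each, with day 7 in red and day 3 in blue. Arg1, Chil3 and Il10 are low on day 7, while the other 9 are at least 4-fold higher on day 7 than on day 3.

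MHC class II genes were higher on day 7 in 10 of 13 cases and lower in 2 (median 2.30). After length centring 10 were higher and 0 lower, with a median of 2.96. Cd74, the invariant chain that guides class II molecules, had 197319 on day 7 against 28676 on day 3 (2.78), the highest of the 6 libraries, and the class II beta chain gene H2-Eb1 41021 against 7533 (2.44). Ciita, the transactivator on which class II transcription depends, had 1207 against 163 (2.76). The genes that regulate peptide exchange, H2-DMb2 (2.37) and H2-Ob (2.59), were higher with them. H2-Ea-ps had 50801 against 8625 (2.56). Its symbol marks it as a pseudogene, which was not checked for the Balb/c strain used here. The 2 lower members are enzymes of the endosomal route that prepare peptides. Ctss, the protease that cleaves the invariant chain, had 29813 against 79245 (-1.41), and the thiol reductase gene Ifi30, named after its value was seen, lay at -1.71. B cells and dendritic cells also carry class II molecules. The summed B cell markers were 8248 on day 7 against 1164 on day 3, the summed class II genes 373005 against 144597, and the part of those cells was not tested.

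Interferon-induced genes were higher on day 7 in 24 of 37 cases and lower in 1 (median 1.24; 29 and 1 after length centring, median 1.52). Ifit2 had 1687 on day 7 against 245 on day 3 (2.70), and the regulator gene Irf7 10833 against 2159 (2.32). The antiviral sensor gene Oas3 had 666 against 102 (2.51), the signal transducer gene Stat2 2122 against 480.3 (2.10), and the GTPase gene Iigp1 530.4 against 44.4 (3.14). The 1 lower member, Cxcl10, had 106 against 519.8 (-2.11). Day 7 was not the top of the course. The list stood at -0.55 relative to mock on day 7 and at -1.79 on day 3. Its sum was 367026 on day 1 and 195834 on day 5, against 58293 on day 7.

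The element known to bind the interferon-activated factor ISGF3 is shown in the promoter of Oas3, picked after the values were seen as the member with the highest ratio among those whose windows held it. The window is chr5:120777610-120777909 (minus strand, RefSeq GRCm38.p6), 5′ to 3′, with the match in capitals, which reads GAAA, any 2 bases and GAAA again.
Oas3: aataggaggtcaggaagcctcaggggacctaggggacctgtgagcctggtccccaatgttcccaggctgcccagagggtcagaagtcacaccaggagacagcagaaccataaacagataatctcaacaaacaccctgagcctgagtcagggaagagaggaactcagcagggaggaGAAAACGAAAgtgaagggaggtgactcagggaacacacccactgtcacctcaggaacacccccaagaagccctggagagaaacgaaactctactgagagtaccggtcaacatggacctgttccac
Searched on both strands, this element was in 18 of 34 windows of interferon-induced genes (52.9%), 3.44% of all windows and 3.30% of those of expressed genes. Ifit2, with a higher ratio than Oas3, did not meet the rule for the printed window, which asked for the element in every window of a gene.

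MHC class I genes and those that load peptide on them were higher in 10 of 19 cases and lower in 1 (median 1.03; 12 and 0 after length centring). The transactivator gene Nlrc5 had 469.6 on day 7 against 54.9 on day 3 (2.75), the peptide transporter gene Tap1 3146 against 679.7 (2.18), and the classical class I gene H2-D1 84116 against 38168 (1.14). The shared light chain gene B2m lay at -0.49, and at 0.73 after length centring. H2-Q6 (2.78) and H2-Q7 (2.69) are near-identical copies whose reads may have been divided between them in counting.

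Genes of tissue-resident macrophages had 5 of 20 members higher and 1 lower (median 0.28; 7 and 0 after length centring). The phosphatidylserine receptor gene Timd4 had 1234 on day 7 against 103 on day 3 (3.38), with 2704 in mock. The lectin genes Cd209b (429 against 16.9, 3.69) and Fcna (2536 against 246, 3.28) were higher. Lyve1, the hyaluronan receptor gene, had 1779 against 675 (1.37) and stayed below the 6005 of mock. Selenoprotein P gene Sepp1 (-0.74) and folate receptor gene Folr2 (-0.67) lay within 2-fold, and the carbonyl reductase gene Cbr2 (-1.62) was lower, though within 2-fold after length centring (-0.52).

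Of 18 genes for the uptake of dead cells 2 were higher and 3 lower (median 0.29; 3 and 3 after length centring), near the shares over all genes. The higher ones were Timd4 and the receptor kinase gene Axl, with 6337 on day 7 against 662 on day 3 (3.22). Annexin gene Anxa1 (-1.56), Tgm2 and Lrp1 (-1.02) were lower. Genes known from microglia, such as Olfml3 (731 against 3395, -2.19) and P2ry12 (-1.24), were lower in 6 of 13 cases and higher in 1 (median -0.92; 2 and 1 after length centring).

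Complement genes were higher in 4 of 15 cases and lower in 0 (median 0.24; 7 and 0 after length centring). The component gene C4b had 4772 on day 7 against 156 on day 3 (4.79, interval 4.74 to 5.14), the highest of the 6 libraries. C3 had 1160.5 against 515 (1.15). The 3 chains of C1q, abundant in macrophages, lay within 2-fold, with C1qa at 0.24, C1qb at 0.12 and C1qc at 0.41, and were past it after length centring, as given above.

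Monocyte genes were split, with 4 of 16 higher and 5 lower (median -0.22, above 0 under quantile normalisation and equal totals; 5 and 5 after length centring). The lower side held Chil3, Fn1 and the proteoglycan gene Vcan (-1.65). The Ly6c genes, near-identical copies, lay at 1.16 (Ly6c1) and 1.67 (Ly6c2). Among 16 lectin genes of macrophages 6 were higher and 4 lower (median 0.37; 7 and 3 after length centring). Clec4e, a receptor of mycobacterial and dead-cell products, had 329 against 3313 (-3.26), while Cd209f (2.06) and Mgl2 were higher. Integrin genes had 4 of 12 higher and 1 lower (median 0.20), led by Itgal, the alpha chain of the leukocyte integrin LFA-1, with 1708 against 186 (3.08). The part of T and NK cells in the Itgal value, whose sums are given above, was not tested.

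Of 9 expressed neutrophil genes 2 were higher and 1 lower, and 3 and 1 after length centring. Granule genes Ngp (710.3 on day 7 against 25.4 on day 3, 4.08) and Ltf (3.28) were higher, S100a9 lay at 0.15, and Retnlg was lower with 539.7 against 5792 (-3.38). Reg genes, secreted lectins of stressed acinar cells, had 2 members higher and 2 lower of 6 (median 0.92), a split that length centring did not keep, with 4 higher and 1 lower (median 2.13). Reg3g (186 against 1545, -2.94) and Reg3b (-1.66) were lower on day 7, Reg3a (3267 against 574, 2.47) and Reg3d (1.78) higher, and Reg1 (0.94) and Reg2 (0.89) within 2-fold. After length centring Reg1 (2.15) and Reg2 (2.11) were higher and Reg3b (-0.44) lay within 2-fold. The counting of reads shared by near-identical copies is not described, which leaves values of single Reg genes uncertain.

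Metabolic and housekeeping groups of short transcripts were low on day 7. Of 51 cytosolic ribosomal protein genes 49 were lower and 0 higher (median -1.29), but after length centring 6 were lower and the median was -0.27. Nuclear genes of the respiratory chain had 19 of 25 lower (median -1.54), and 2 after length centring (-0.52). The mRNAs of the mitochondrial genome had 9 of 10 lower (median -1.43), and 0 after length centring (-0.37). Most members of these 3 lists thus came within 2-fold once they were set against genes of like length. The members are themselves among the genes that set those medians, so centring can remove part of a change they share.

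Glycolysis genes had 7 of 20 members lower and 2 higher (median -0.43, turning to 0.03 under equal totals without acinar, Reg, erythroid and mitochondrial genes; 2 and 2 after length centring). Gapdh, a glycolytic enzyme gene, had 6303 on day 7 against 24425 on day 3 (-1.95, and -1.15 after length centring), while the glucose transporter gene Slc2a3 was higher (1.15). Genes of the unfolded protein response had 8 of 21 lower and 0 higher (median -0.60; 6 and 1 after length centring). The chaperone gene Hspa5 had 15411 against 37190.1 (-1.27), the calreticulin gene Calr 7884 against 25511 (-1.69), and Manf 842 against 3323 (-1.96). Hypoxia genes had 4 of 11 lower and 0 higher (median -0.78; 3 and 0 after length centring), with Vegfa the lowest.

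The extremes of the comparison belonged to few groups. Among the 20 highest ratios, the cytotoxic gene Prf1 stood first with 1041 on day 7 against 9.16 on day 3 (5.30), followed by Il2rb (5.18), Retnla, Cel and Ncr1 (5.02). Lymphocyte genes Fcmr (4.73), Gzma (4.67), Cd79a (4.56), Tcf7 (4.43) and Lck (4.20) were in this group. Prg4, which encodes the lubricating proteoglycan lubricin, had 947 against 31 (4.31). Among the 20 lowest, after Spp1, Timp1 and Cxcl1, came the glucagon gene Gcg with 15.2 against 696 (-4.44), the serotonin receptor gene Htr2b with 11.8 against 604 (-4.39) and Il10. The chaperone gene Clu had 2771 against 31129.6 (-3.48), the microtubule regulator gene Stmn1 835 against 8773 (-3.37), and the smooth muscle actin gene Acta2, a mark of activated stellate cells, 25.3 against 443 (-3.42). Gcg is made by islet alpha cells, which are not macrophages.

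Across the 403 named genes the median half-width of the counting interval was 0.12 on the log2 scale, and the widest was 1.62, for the B cell gene Fcer2a with 4 reads on day 3. Of these genes 291 were past 2-fold. Of those, 188 stayed past 2-fold on the same side in each of the 11 alternative settings that gave them a value. Among these settings, the 6000 highest genes and no filter leave a gene's ratio unchanged, so they could not move a single gene.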

How the data were processed

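RNA of macrophages sorted from mouse pancreas was measured in 6 pooled libraries. As deposited, values are a signal per gene, normalised by the authors, and every column holds whole multiples of 1 step. They are thus gene counts that the authors divided by 1 factor per library. In each library 100% of values came out as whole reads within 0.01 reads. Bowtie 0.12.2 and the build mm8 are named per the submitters' processing notes, while the sources used here do not name the gene counter, its annotation or its use of strand. Of the identifiers 31431 (99.4%) were in a table of mouse gene names. Where a symbol had several identifiers, that with the most signal was used.

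Days were read from the sample labels. Expressed genes, pseudocount and 2-fold counts are as in the results, and the lowest mean of an expressed gene was 74.1. There were 59 gene lists, and members below that mean were left out of counts. The named genes are the 20 highest and 20 lowest ratios (without predicted genes, small RNAs, pseudogenes and receptor segments), in each list up to 6 members by size of ratio and up to 4 by mean, and the genes of the sort. The members and lists were chosen with earlier results of these data known. Exon lengths and GC contents came from GENCODE vM21, for 99.9% of expressed genes, and promoters from RefSeq.

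Alternatives changed pseudocount, filter, scaling, fold or correction for length. As a further alternative the recovered reads of all 6 libraries were tested in R 4.3.3 with DESeq2 1.42.0 and the quasi-likelihood method of edgeR 4.0.16. There mock and days 1, 4 and 5 stood in as replicates of 1 group, so the lone libraries of days 7 and 3 are assumed to vary like different days do. At an adjusted p of 0.05 edgeR called 0 genes and DESeq2 called 47 higher and 16 lower. The calculations were tested on simulated data. The remaining work was done in Python 3.11.15 with scipy 1.17.1, pandas 2.3.3, numpy 2.4.6 and, for plots, matplotlib 3.10.9. Some members of the lists are counted but not reported by name here.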

Additional observations from a re-analysis of the deposited data

How the results depend on the processing

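The 815 higher and 1800 lower genes became 374 higher among the 6000 highest genes and 1308 without a filter. Equal totals gave 1652 and 954, and without acinar, Reg, erythroid and mitochondrial genes 1875 and 826. Centring by length left 859 lower, and by length and GC content 739; both were added after seeing the data. At 4-fold 258 and 240 remained. With other days as replicates edgeR called 0 higher and 0 lower of 14106 genes (504 and 877 at an unadjusted p under 0.05, smallest adjusted p 0.502), and DESeq2 called 47 and 16 of 13559. Among 56 list medians and 403 named genes, 2 medians and 5 genes past 2-fold as reported changed sign. The endothelial median was -0.10 without a filter, and the CC chemokine median 0.095 with length centring and 0.21 with length and GC. Hba-a2 stood at 0.19 and mt-Rnr1 at 0.15 with length centring, and with length and GC Sat1 at 0.22, mt-Co3 at 0.015, mt-Nd2 at 0.018 and mt-Rnr1 at 0.37. The cause of these changes was not tested. Of 20 list medians past 2-fold, 11 stayed past it with length centring, 16 with equal totals and 16 without a filter. With equal totals and the acinar, Reg, erythroid and mitochondrial genes left out, 13 of the 17 that still had a median stayed past it. No paired analysis was possible because each day has 1 library, and for the same reason no replicate could be left out. The depth of 1 library a side limits genes with few reads on day 3.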

Other observations

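Genes of iron handling had counts near the shares over all expressed genes, 8.15% higher and 18% lower, before length centring. Of 13 expressed genes 2 were at least 2-fold higher on day 7 and 3 lower, and 2 and 1 after length centring. The iron exporter gene Slc40a1 had 750.0 normalised counts on day 7 against 127 on day 3, and the ferroxidase gene Cp 883 against 187 (2.13). The storage genes Fth1 (-1.64) and Ftl1 (-1.34) and the import receptor gene Tfrc (-1.02) were lower, and Ftl1 came to -0.13 after length centring.

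Chemokine receptor genes were higher in 5 of 13 cases and lower in 2 (5 and 3 after length centring). Ccr1 had 1948 on day 7 against 6513 on day 3 (-1.73), and Ccr2, which brings monocytes into tissue, 13159 against 25880.4 (-0.97). The higher ones, such as Cxcr6 (2.67) and Cxcr5 (2.99), are also receptors of lymphocytes. Among 24 transcription factor genes of myeloid cells 3 were higher and 3 lower (4 and 3 after length centring), near the shares over all genes. Klf2 had 15159.9 against 4512 (1.74), Pparg 696 against 316 (1.10), and Id3 318 against 2886 (-3.11). Spi1, a factor that keeps macrophage identity (-0.52), lay within 2-fold.

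Of 22 immediate early genes, whose transcripts appear within minutes of stimulation or cell handling, 3 were higher and 4 lower (4 and 5 after length centring). Fos had 86108 on day 7 against 81718 on day 3 (0.08), while Ier3 had 2237 against 19442 (-3.11). Heat shock genes had 1 of 13 higher and 3 lower (2 and 2 after length centring), with Hspb1 at -2.27 and Hspa1a at 0.94. Clock genes had 0 of 14 higher and 3 lower, among them Ciart (-1.68) and Nfil3 (-1.78), while Arntl lay at 0.81. For immediate early, heat shock and clock genes, the counts before length centring were near the shares over all expressed genes. Of 12 genes of arginine and polyamine metabolism 0 were higher and 4 lower. After length centring 2 were higher and 2 lower, so the one-sided count did not hold. Next to Arg1 the second arginase gene, Arg2, had 245 against 1739.6 (-2.74). Lars2, named as a mitochondrial leucyl-tRNA synthetase gene, had 3952 on day 7 against 420.5 on day 3 (3.18), beside 13854 in mock. It belongs to a separate list of rRNA-related genes, kept as a check of library quality. Whether its reads come from the synthetase transcript was not tested.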
